A study of Mus musculus with 24 samples.

Results

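Expression of the chemokines and their receptors was examined in colon tissue of mice with colitis-associated tumors. The set was a fixed list of 40 genes, 27 ligands and 13 receptors, out of 45616 gene names on the array. A member was taken from the probes whose accession maps to its symbol, and its brightest probe was used, so that no measured difference chose the probe. The list itself was drawn up with earlier results of these data known, so the shares of members called are descriptive. A probe was found for 39 of the 40. No probe matched Cxcl11, a ligand of Cxcr3.

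All animals were C57BL/6J mice, 7 weeks old on arrival. Each was injected with the colon carcinogen azoxymethane (AOM, 10 mg/kg) and then drank 1.5% dextran sulfate sodium (DSS), which injures and inflames the colon lining, for 5 days at a time in 3 rounds. Males (M) and females (F) had sham surgery, and the F(OVX) females had their ovaries removed. Each kind of mouse was fed for 14 weeks either a diet with 10 kcal% fat (LFD) or one with 45 kcal% fat (HFD), and tissue was taken 75 days after AOM. The resulting 6 groups had 4 arrays each, the animals being those nearest to the mean body weight of their group, and no group was free of AOM and DSS. By the study's methods the arrays used distal colon. The samples were pieces of whole tissue, so fewer cells of a type and less RNA per cell cannot be told apart.

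Chemokines are small secreted proteins that guide leukocytes along concentration gradients by binding receptors coupled to G proteins on the migrating cell. CXC ligands such as Cxcl1 and Cxcl5 draw neutrophils through Cxcr2, CC ligands such as Ccl2 and Ccl7 draw monocytes through Ccr2, and Ccl19, Ccl20 and Cxcl13 place dendritic cells and lymphocytes in the lymphoid follicles of the gut wall. In the inflamed colon many of them are induced by bacterial and cytokine signals that act through the transcription factor NF-kappaB.

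The promoters of Cxcl1, Ccl20 and Ccl17, ligands that the results below turn on, are shown with that of Cxcl2, the neighbor of Cxcl1, because 3 of the 4 hold a match to the sequence that NF-kappaB binds and 1 holds none. Each is the 250 bases before the annotated start of the gene in RefSeq (assembly GRCm38.p6), on the plus strand, read 5′ to 3′, and capitals mark matches to the NF-kappaB consensus on either strand. Cxcl1 lies at chr5:90890995-90891244 and its neighbor Cxcl2 at chr5:90903649-90903898. Ccl20 lies at chr1:83116516-83116765 and Ccl17 at chr8:94810203-94810452.
Cxcl1: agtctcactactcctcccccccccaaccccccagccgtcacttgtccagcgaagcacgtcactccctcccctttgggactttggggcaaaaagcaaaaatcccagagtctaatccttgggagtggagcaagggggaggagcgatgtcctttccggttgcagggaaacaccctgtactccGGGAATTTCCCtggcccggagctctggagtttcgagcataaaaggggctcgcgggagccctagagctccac
Cxcl2: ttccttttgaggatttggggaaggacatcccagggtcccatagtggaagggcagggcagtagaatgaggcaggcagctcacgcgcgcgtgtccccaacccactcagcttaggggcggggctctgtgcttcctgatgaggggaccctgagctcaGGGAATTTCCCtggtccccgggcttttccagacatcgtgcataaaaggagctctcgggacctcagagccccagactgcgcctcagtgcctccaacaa
Ccl20: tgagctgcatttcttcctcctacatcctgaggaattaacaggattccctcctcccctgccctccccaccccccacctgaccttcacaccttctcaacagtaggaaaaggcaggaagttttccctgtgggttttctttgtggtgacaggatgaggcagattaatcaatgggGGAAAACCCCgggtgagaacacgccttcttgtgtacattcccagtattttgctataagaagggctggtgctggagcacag
Ccl17: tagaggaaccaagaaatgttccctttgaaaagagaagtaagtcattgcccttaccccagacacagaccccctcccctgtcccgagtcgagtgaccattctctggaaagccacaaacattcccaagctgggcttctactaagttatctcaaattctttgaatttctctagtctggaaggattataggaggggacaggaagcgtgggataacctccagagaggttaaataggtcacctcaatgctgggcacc
The same capitalized run stood 71 bases before the start of Cxcl1 and 97 before that of Cxcl2, each as a pair of overlapping matches. The match in Ccl20 stood 80 bases before its start, and the window of Ccl17 held no match. A promoter window was available for 29 members, and 8 of them had a match in at least 1 window (Ccl9, Ccl20, Ccr1, Ccr6, Cxcl1, Cxcl2, Cxcl3 and Cxcl10), beside 7.25% of all 32851 mouse promoter windows of this length. A match is a description of the letters and not a measured binding site.

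The share of probes well above background ranged from 40.5% to 61.9% over the arrays, with the lowest shares on F(OVX) + LFD replicate 3 (40.5%) and F + HFD replicate 2 (43.6%). Slide 1 held the M arrays, slide 2 the F arrays and slide 3 the F(OVX) arrays, the LFD arrays in row 1 and the HFD arrays in row 2 of each, so sex or surgery cannot be told apart from slide, nor diet from slide row. The distal colon marker Hoxb13 was between 12.58 and 14.79 (log2 signal) on 22 arrays, but 2.18 and 5.04 on M + LFD replicates 1 and 2. The proximal colon marker Hoxb6 was 12.71 and 11.20 on the same arrays and between 4.47 and 8.35 on the others. Differences that use M + LFD and are read below were also computed without both arrays.

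Of the 39 members, 24 were well above background on all 24 arrays and 10 on some of them. Cxcl3, Cxcr2 and Ccr1 were well above background on no array. Cxcl3 is a neutrophil attractant, Cxcr2 is the receptor on neutrophils, and Ccr1 is a receptor of Ccl3 and Ccl5 on monocytes and neutrophils. Cxcl2, another neutrophil attractant, and Ccl22, a ligand that draws regulatory T cells and other Ccr4-bearing cells, were well above background on 1 array each, and on both occasions it was M + HFD replicate 2, with log2 signals of 5.14 and 6.10. The other 23 arrays read between 2.00 and 2.54 for Cxcl2 and between 2.05 and 2.31 for Ccl22. The neutrophil markers S100a9 and S100a8 were well above background on 22 and 16 of the 24 arrays.

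**Figure D1:**
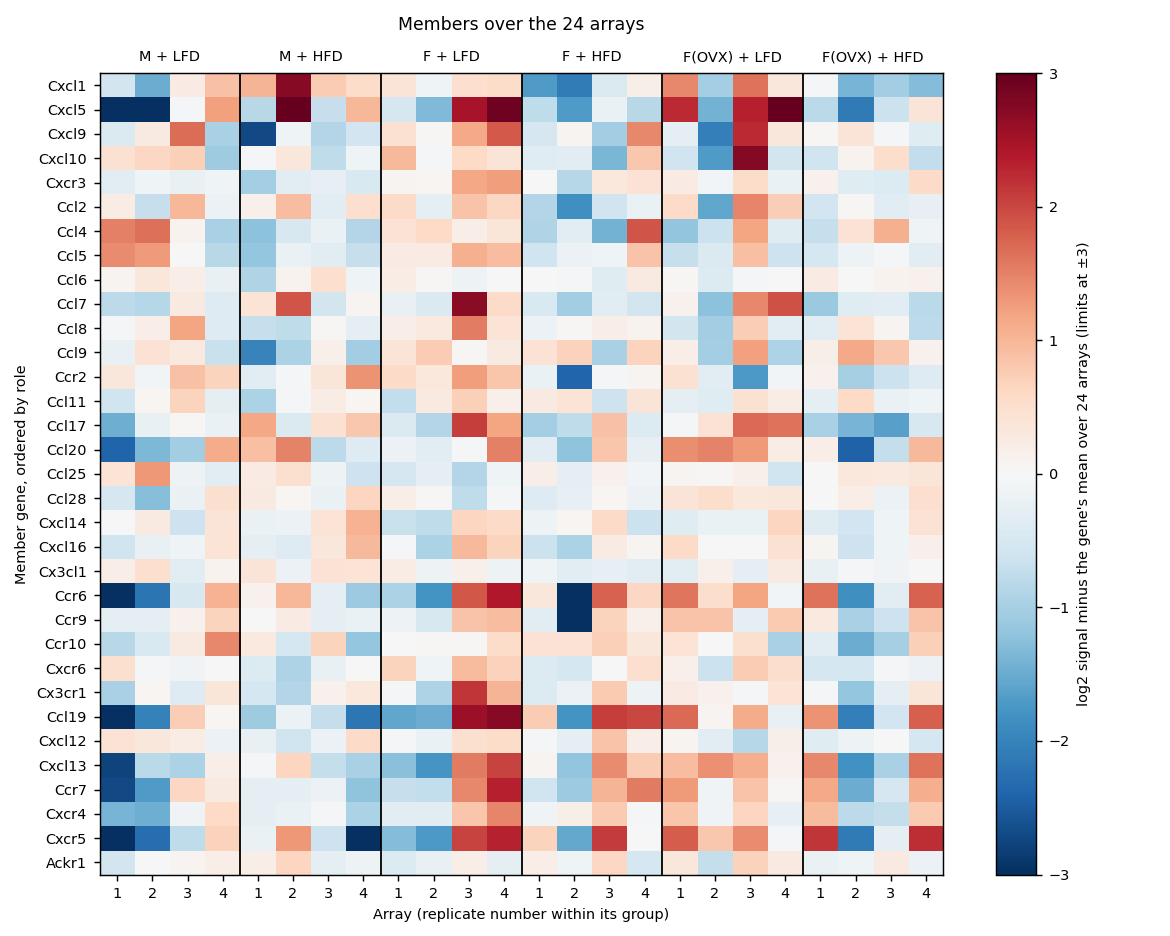
Map of the 33 members that were well above background on at least 12 arrays. Each column is 1 array within its group, each row is 1 gene, and color gives the log2 signal minus the mean of that gene over the 24 arrays. Ccr6, Ccl19, Cxcl13, Ccr7 and Cxcr5 shared their high and low arrays, while Ccl6 and Cx3cl1 varied little (ranges of 1.41 and 0.84).

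The thresholds of the study were kept: a member was called if its groups differed 1.5-fold or more and limma's p before adjustment was below 0.05. After adjustment over all genes no gene of the array, and so no member, had a limma p under 0.05 in any diet comparison, whereas 1251 genes in M, 643 in F and 709 in F(OVX) did before adjustment. HFD was compared with LFD in M first. Here 2 of 33 members tested were called (6.06%), beside 4.3% of the 20516 genes tested, and both were higher on HFD. The median log2 difference was 0.07 over the members, with 17 above 0 and 16 below it, and 0.01 over all genes. The members' median was -0.18 without M + LFD replicates 1 and 2, with 12 above 0 and 21 below it.

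Cxcl1 is a neutrophil attractant made by epithelial and stromal cells. Its log2 signals were 4.19, 3.27, 4.99 and 5.63 in M + LFD and 5.78, 7.49, 5.51 and 5.29 in M + HFD. The groups overlapped, since M + LFD replicate 4 lay above M + HFD replicates 3 and 4. The difference was 1.5 ± 0.61 (log2, SE, n = 4 + 4, limma p = 0.0375, adjusted p = 0.8, exact permutation p = 0.0857).

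Ccl17, which draws T cells that bear Ccr4, read 5.0, 6.24, 6.49 and 6.25 in M + LFD and 7.62, 6.03, 6.90 and 7.27 in M + HFD. Of the M + HFD arrays, 3 lay above all M + LFD arrays and replicate 2 lay within their range. The difference was 0.96 ± 0.42 (log2, SE, n = 4 + 4, limma p = 0.0479, adjusted p = 0.806, exact permutation p = 0.114). Without M + LFD replicates 1 and 2 together, the difference was 0.71 for Cxcl1 and 0.58 for Ccl17, and neither was called. The members called without these arrays, 2 of 33, were Ccl19 (-1.41 ± 0.54) and Ccr7 (-0.93 ± 0.32), both lower on HFD. This fit had 2 LFD and 4 HFD arrays, and the adjusted limma p was 0.926 for both. The call of Cxcl1 was also lost without M + LFD replicate 1 (1.39) or 2 (1.08) or M + HFD replicate 1 (1.58) or 2 (1.01), and Cxcl1 passed the filter through the HFD arrays, since 2 of 4 LFD arrays were not well above background. That of Ccl17 was lost on leaving out any of 6 arrays, with differences between 0.63 and 1.05. With the background corrected by normexp instead, the differences were 0.57 and 0.54 and neither was called.

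Several members of other roles had negative differences in M without being called. Ccl4 and Ccl5, attractants of T cells and macrophages, differed by -1.27 ± 0.57 and -1.06 ± 0.50 (log2, SE), and Cxcl9, an interferon-gamma-induced ligand of Cxcr3, by -1.21 ± 0.68. These differences were -0.26 for Ccl4, -0.18 for Ccl5 and -1.43 for Cxcl9 without M + LFD replicates 1 and 2. The highest Ccl4 and Ccl5 signals in M were those of M + LFD replicates 1 and 2 (7.43 and 7.57 for Ccl4, 12.50 and 12.37 for Ccl5). The summed linear signal of 6 T and NK cell markers ranged from 1600 to 3050 in M + LFD and from 1350 to 1620 in M + HFD. The part of these cells in the differences was not tested.

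In F, HFD was compared with LFD in animals with ovaries. Here 3 of 34 members were called (8.82%), beside 1.2% of the 22085 genes tested, and all 3 were lower on HFD: Cxcl1, Ccl2 and the Ccl2 receptor Ccr2. The median log2 difference of the members was -0.48, with 26 below 0 and 8 above it, and that of all genes was -0.004.

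Ccl2, the main attractant of inflammatory monocytes, was well above background on all 24 arrays. It read 8.43, 7.60, 8.72 and 8.48 in F + LFD and 6.99, 6.03, 7.26 and 7.66 in F + HFD. The groups overlapped by 1 array in each, F + LFD replicate 2 and F + HFD replicate 4. The difference was -1.32 ± 0.37 (log2, SE, n = 4 + 4, limma p = 0.00702, adjusted p = 0.991, exact permutation p = 0.0571). Ccl2 was called in all 8 alternative settings (-1.34 to -0.98) and with any 1 of the 8 arrays left out (-1.56 to -1.01).

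Ccr2, the receptor that lets monocytes leave the bone marrow and follow Ccl2, read 5.25, 5.01, 5.93 and 5.51 in F + LFD and 4.48, 2.30, 4.65 and 4.76 in F + HFD. The groups did not overlap, and the lowest value, on the dim F + HFD replicate 2, was not well above background. The difference was -1.38 ± 0.53 (log2, SE, n = 4 + 4, limma p = 0.0313, adjusted p = 0.991, exact permutation p = 0.0286). This exact p is the smallest that 4 against 4 arrays can give. Without F + HFD replicate 2 the difference was -0.80 and still called, and the call was lost without F + LFD replicate 1 (-1.44), 3 (-1.21) or 4 (-1.35).

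Cxcl1 read 5.14, 4.62, 5.26 and 5.31 in F + LFD and 3.04, 2.66, 4.31 and 4.92 in F + HFD. Only F + HFD replicate 4 exceeded the lowest F + LFD array, and of the F + HFD arrays it alone was well above background for this gene. The difference was -1.35 ± 0.48 (log2, SE, n = 4 + 4, limma p = 0.0216, adjusted p = 0.991, exact permutation p = 0.0571). The call was lost without replicate 4 of F + LFD (-1.28) or replicate 1 (-1.12) or 2 (-0.99) of F + HFD. Cxcl1 and Ccr2 passed the filter through the LFD arrays, where they were high, which favors a difference in this direction. Under normexp the differences were -0.39 for Ccr2 and -0.30 for Cxcl1, and neither was called.

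Same-numbered F arrays deviated together, and when the number was fitted as a block 9 of 34 members were called in F, all lower on HFD, beside 2.65% of the 22085 genes. Ccl2 again differed by -1.32, now with an SE of 0.16 (limma, adjusted p = 0.666). Ccr2 and Cxcl1 were called again, and the members added were Cxcl5 (-1.76 ± 0.64), Ccl7 (-1.25 ± 0.47), Ccl17 (-0.81 ± 0.29), Cxcr3 (-0.66 ± 0.18), Cxcr6 (-0.65 ± 0.19) and Ccl5 (-0.63 ± 0.21, log2, SE). Cxcr3 and Cxcr6 are receptors of effector T cells, and Ccl7 is a second ligand of Ccr2. No gene had an adjusted p under 0.05 in this fit. It assumes a pairing of the mice by number, which the labels do not name.

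Markers of the cells that respond to these ligands were read on the same arrays. The summed linear signal of 5 macrophage and monocyte markers ranged from 10300 to 20900 in F + LFD and from 10700 to 15600 in F + HFD, and of the 5 none was called, with a median log2 difference of -0.47. For 4 neutrophil markers the sums ranged from 26100 to 52500 and from 22000 to 30600. All 4 smooth muscle markers had positive differences between 0.33 and 0.65, with sums from 54200 to 171000 in F + LFD and from 93300 to 133000 in F + HFD, and none was called. The part of any of these cells in the chemokine differences was not tested.

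In F(OVX), 3 of 29 members were called (10.3%), beside 2.19% of the 19211 genes tested. All 3 were ligands and lower on HFD: Ccl17, Cxcl5 and Ccl20. The median log2 difference of the members was -0.23, with 24 below 0 and 5 above it, and that of all genes was 0.011.

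Ccl17 read 6.39, 6.88, 8.15 and 8.08 in F(OVX) + LFD and 5.48, 5.05, 4.83 and 5.97 in F(OVX) + HFD. All 4 HFD arrays lay below all 4 LFD arrays. The difference was -2.04 ± 0.43 (log2, SE, n = 4 + 4, limma p = 0.00112, adjusted p = 1), and the exact permutation p was 0.0286. It was called in all 7 alternative settings that tested it (-2.04 to -1.13) and with any 1 array left out (-2.37 to -1.78).

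Cxcl5, a neutrophil attractant made mainly by epithelial cells, read 8.86, 5.22, 8.97 and 9.68 in F(OVX) + LFD and 5.82, 4.50, 5.98 and 7.02 in F(OVX) + HFD. Replicate 2 was the lowest array in both groups, and the other 3 LFD arrays lay above all HFD arrays. The difference was -2.35 ± 0.94 (log2, SE, n = 4 + 4, limma p = 0.0333, adjusted p = 1, exact permutation p = 0.114). The call was lost on leaving out any of 6 arrays, all but replicate 2 of F(OVX) + LFD and replicate 4 of F(OVX) + HFD, with differences between -2.4 and -1.85. For Cxcl5 and Ccl17 all 4 LFD arrays and 3 of 4 HFD arrays were well above background. Both thus passed the filter through the LFD arrays, where they were high, which favors a difference in this direction.

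Ccl20, made by the epithelium over lymphoid follicles and recognized by Ccr6 on B cells and dendritic cells, read 9.03, 9.14, 8.92 and 7.88 in F(OVX) + LFD and 7.85, 5.23, 6.93 and 8.62 in F(OVX) + HFD. The groups overlapped through F(OVX) + LFD replicate 4 and F(OVX) + HFD replicate 4. The difference was -1.58 ± 0.66 (log2, SE, n = 4 + 4, limma p = 0.0391, adjusted p = 1, exact permutation p = 0.0571). Without F(OVX) + HFD replicate 2 it was -0.94 and not called, and the call was also lost without F(OVX) + LFD replicate 1 (-1.49), 2 (-1.45) or 3 (-1.53) or F(OVX) + HFD replicate 3 (-1.51). With the replicate number as a block it was not called either.

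Markers of other cells also differed between these F(OVX) groups. All 4 smooth muscle markers were higher on HFD in their mean (0.59 to 1.25, median 0.74), and 2 were called. Their summed linear signal ranged from 32600 to 75300 in F(OVX) + LFD and from 64700 to 133000 in F(OVX) + HFD. Of 5 B and plasma cell markers 1 was called lower (median -0.51), with sums from 33100 to 46400 and from 25600 to 46800. The 5 macrophage and monocyte markers had a median of -0.21 and none was called. The part of these cells in the differences of Ccl17, Cxcl5 and Ccl20 was not tested.

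**Figure D2:**
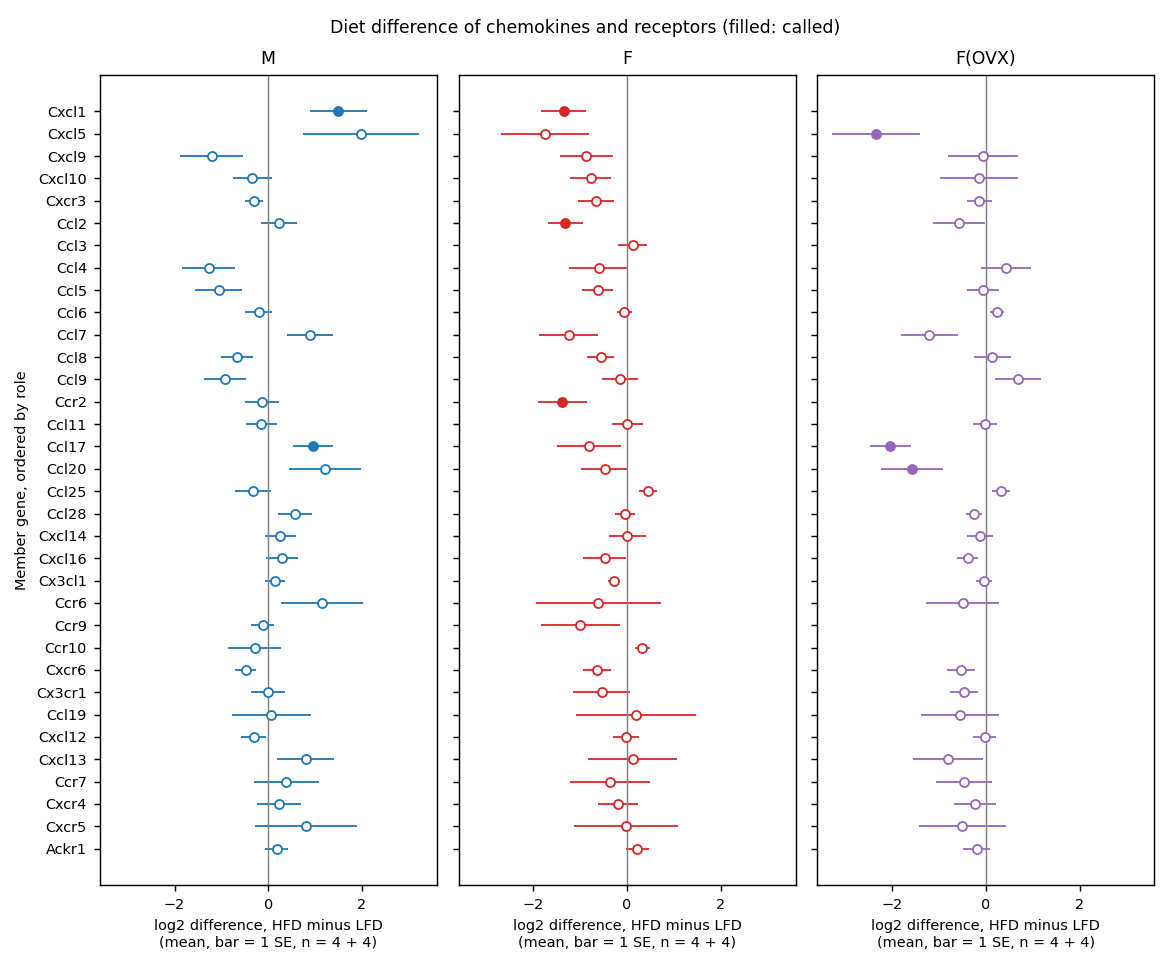
Difference between HFD and LFD on the log2 scale for each member tested in M, F and F(OVX), with bars of 1 SE (n = 4 + 4). Filled points were called, and a gene without a point was not tested in that comparison. Cxcl1 (1.5) and Ccl17 (0.96) lie right of 0 in M, and the 3 filled points in F and the 3 in F(OVX) all lie left of it.

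The diet effects themselves were then compared in 1 fit of the 24 arrays, to ask whether they differed among M, F and F(OVX). Of 34 members 5 were called (14.7%), beside 3.82% of the 22383 genes: Cxcl1, Cxcl5, Ccl17, Ccl20 and Ccl7. They are 4 CXC or CC ligands of neutrophils, T cells and monocytes and the follicle ligand Ccl20, and no receptor was among them. The range between the highest and the lowest diet effect was 3.05 for Cxcl1, 3.0 for Ccl17, 4.34 for Cxcl5, 2.81 for Ccl20 and 2.14 for Ccl7 (log2), each with an adjusted limma p of 0.999.

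The 5 genes shared the order of the groups only in part. Cxcl5 read 3.37, 3.18, 6.59 and 7.87 in M + LFD and 5.79, 9.61, 5.94 and 7.62 in M + HFD, and it read 6.13, 5.31, 9.10 and 9.54 in F + LFD and 5.86, 4.93, 6.44 and 5.79 in F + HFD. Its diet effect was 1.99 ± 1.24 in M and -1.76 ± 0.94 in F (log2, SE), neither of which was called on its own. The effect in M was 0.01 without M + LFD replicates 1 and 2. The M + LFD arrays with low Hoxb13 were its lowest of all 24.

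Ccl7 read 6.04, 5.97, 7.10 and 6.43 in M + LFD, 7.23, 8.70, 6.28 and 6.91 in M + HFD, 6.61, 6.38, 9.54 and 7.39 in F + LFD, and 6.36, 5.79, 6.50 and 6.27 in F + HFD. In F(OVX) it read 6.96, 5.60, 8.26 and 8.74 on LFD and 5.71, 6.47, 6.51 and 6.02 on HFD. The groups overlapped in each diet comparison, and its highest values came from 1 or 2 arrays of a group.

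Ccl20 read 5.24, 6.31, 6.61 and 8.76 in M + LFD and 8.54, 9.13, 6.87 and 7.27 in M + HFD, and it read 7.48, 7.32, 7.61 and 9.15 in F + LFD and 7.30, 6.45, 8.47 and 7.41 in F + HFD. In both kinds of mouse 1 LFD array, replicate 4, stood well above the other 3. Cxcl1 read 6.19, 3.72, 6.39 and 5.10 in F(OVX) + LFD and 4.68, 3.36, 3.71 and 3.44 in F(OVX) + HFD, where 1 array of 4 on HFD was well above background. Ccl17 read 6.02, 5.58, 8.52 and 7.63 in F + LFD and 5.44, 5.69, 7.33 and 6.05 in F + HFD. For both genes the diets overlapped, and the replicates 3 and 4 of F + LFD that were high in Ccl17 were also the high ones in Cxcl5.

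The monocyte pair Ccl2 and Ccr2, called in F, was not called for diet effects differing among M, F and F(OVX). The unadjusted limma p was 0.11 for Ccl2 and 0.134 for Ccr2. Ccl2 read 8.08, 7.17, 8.85 and 7.68 in M + LFD and 8.02, 8.78, 7.55 and 8.36 in M + HFD, and it read 8.44, 6.30, 9.33 and 8.61 in F(OVX) + LFD and 7.28, 7.90, 7.55 and 7.61 in F(OVX) + HFD. Ccr2 read 5.03, 4.61, 5.57 and 5.34 in M + LFD and 4.34, 4.64, 5.04 and 6.04 in M + HFD, and it read 5.14, 4.34, 2.97 and 4.60 in F(OVX) + LFD and 4.82, 3.69, 4.05 and 4.29 in F(OVX) + HFD. The diets overlapped for both genes in M and in F(OVX), and in F(OVX) 2 LFD arrays and 3 HFD arrays were not well above background for Ccr2.

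Between pairs of these groups, the diet effect of M exceeded that of F by 2.85 ± 0.87 for Cxcl1 (log2, SE), and also for Cxcl5 (3.75 ± 1.66), Ccl7 (2.14 ± 0.91), Ccl17 (1.77 ± 0.82) and Ccl2 (1.55 ± 0.70). It exceeded that of F(OVX) by 3.0 ± 0.82 for Ccl17 and 3.05 ± 0.87 for Cxcl1. The same held for Cxcl5 (4.34 ± 1.66), Ccl20 (2.81 ± 1.03), Ccl7 (2.11 ± 0.91) and Ccl28 (0.84 ± 0.39), an epithelial ligand that draws IgA plasma cells through Ccr10. For Ccl9, a ligand of Ccr1, the effect of M lay below that of F(OVX), by -1.61 ± 0.69. The adjusted limma p was 0.975 for M against F and between 0.562 and 0.660 for M against F(OVX), and no member was called between F(OVX) and F. Both sets of differences use the same M arrays. Cxcl1 was not tested in F(OVX) alone, since 2 of 4 LFD arrays and 1 of 4 HFD arrays were well above background, so its difference from F(OVX) rests in part on signals at background. The same holds for its difference from F, since 2 of 4 M + LFD arrays and 1 of 4 F + HFD arrays were well above background. Cxcl1 passed the filter of this fit through M + HFD and F + LFD, where it was high, which favors differences in this direction. Cxcl5 passed it through M + HFD, F + LFD and F(OVX) + LFD, where it was high, so the same holds for Cxcl5.

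Without M + LFD replicates 1 and 2, 1 member remained called for differing diet effects, Ccl17. The range was then 2.62 for Ccl17, 2.27 for Cxcl1, 2.36 for Cxcl5, 1.85 for Ccl20 and 1.76 for Ccl7. Against F the effect of M then exceeded by 2.06 for Cxcl1, which was called, and by 1.77 for Cxcl5, 1.76 for Ccl7, 1.4 for Ccl17 and 1.23 for Ccl2, which were not. Against F(OVX) Ccl17 (2.62) and Cxcl1 (2.27) were called, and Cxcl5 (2.36), Ccl20 (1.85), Ccl7 (1.73), Ccl28 (0.32) and Ccl9 (-1.46) were not. Cx3cl1 was then called between M and F (0.66). With any 1 of the 24 arrays left out, Ccl17 (2.67 to 3.33) and Cxcl1 (2.56 to 3.6) were called each time. Under normexp both were still called, with ranges of 1.67 for Ccl17 and 1.06 for Cxcl1. The calls of Cxcl5, Ccl20 and Ccl7 were lost when any 1 of 7, 10 and 14 arrays, in that order, was left out, with M + LFD replicates 1 and 2 and M + HFD replicate 2 among them for all 3 genes. Without M + HFD replicate 2 their ranges were 3.55, 2.41 and 1.67.

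**Figure D3:**
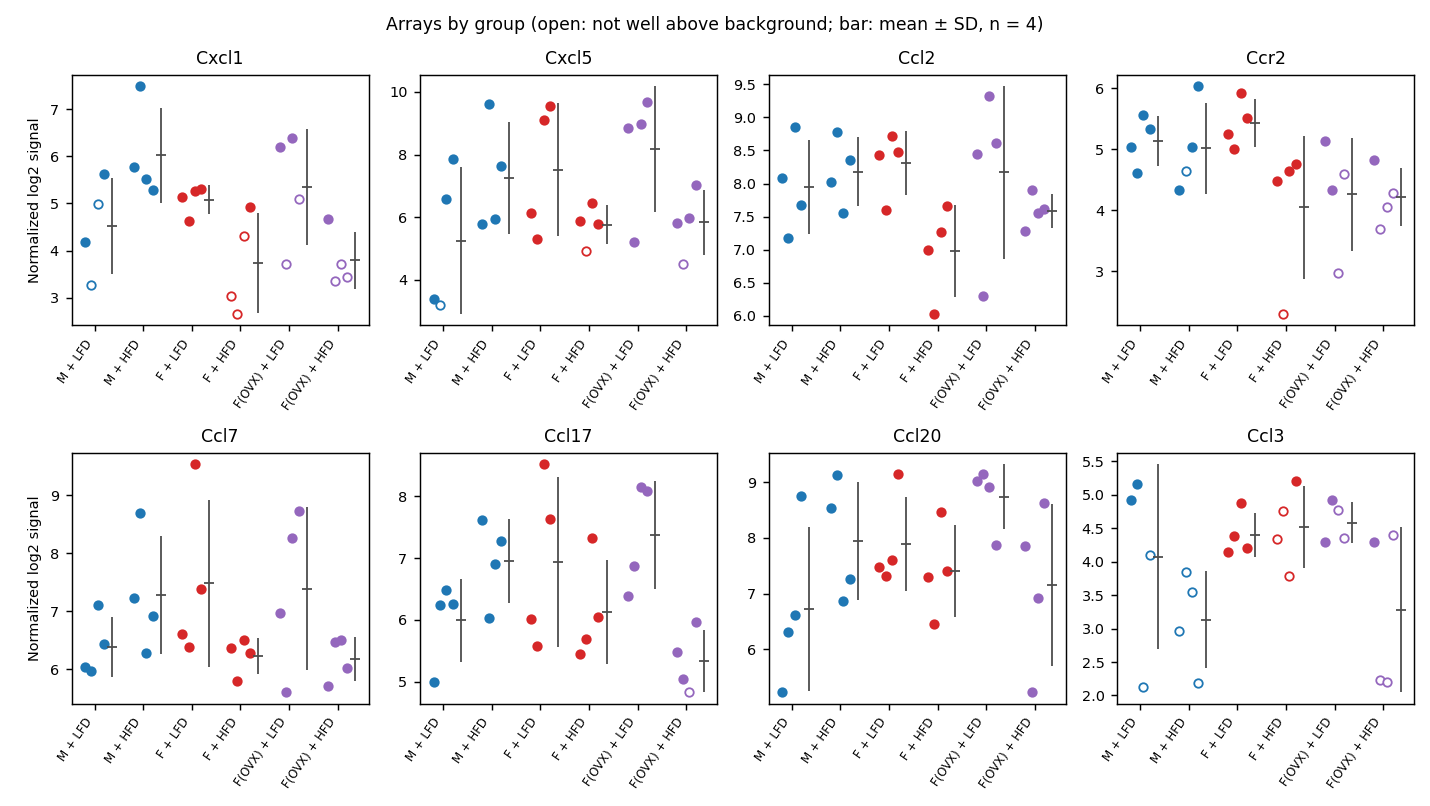
Normalized log2 signal, by group, of the 8 members called in a diet comparison, for differing diet effects (Ccl7) or for the averaged effect (Ccl3). Each array is 1 point, in the order of the replicate numbers. Open points were not well above background, and the bar beside each group gives the mean ± SD (n = 4). For Ccl17 the F(OVX) + HFD arrays (4.83 to 5.97) lie below the F(OVX) + LFD arrays (6.39 to 8.15).

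Averaged over M, F and F(OVX), the diet effect was called for 1 of 34 members (2.94%), beside 0.773% of the 22383 genes. This was Ccl3, a macrophage and T cell attractant that binds Ccr1, at -0.71 ± 0.33 (log2, SE, limma, adjusted p = 0.984). Ccl3 was well above background on 10 of 24 arrays, among them all 4 of F + LFD and none of M + HFD, and it was lost when any 1 of 15 arrays was left out (-0.93 to -0.59 over all) and under normexp (-0.11). Without M + LFD replicates 1 and 2 it was -0.39 and not called, and Ccl2 was called in its place (-0.67 ± 0.31). It read 4.92, 5.16, 2.12 and 4.10 in M + LFD and 2.96, 3.84, 3.55 and 2.19 in M + HFD, but 4.15, 4.38, 4.87 and 4.21 in F + LFD and 4.34, 4.75, 3.78 and 5.21 in F + HFD. In F(OVX) it read 4.29, 4.92, 4.77 and 4.35 on LFD and 4.29, 2.23, 2.20 and 4.40 on HFD, so the groups overlapped in each comparison. The median of the members for this average was -0.24, with 27 below 0 and 7 above it, and that of all genes was 0.006.

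The members other than those above were called in no diet comparison without the block. The Cxcr3 ligands Cxcl9 and Cxcl10 and Cxcr3 itself had negative differences in all 3 diet comparisons, from -1.21 to -0.31 in M, from -0.87 to -0.66 in F and from -0.15 to -0.06 in F(OVX). Cxcl10 was at 0.02 in M without M + LFD replicates 1 and 2. Of the mucosal group, Ccl25, which retains Ccr9-bearing lymphocytes in the gut, differed by -0.32 in M (0.23 without M + LFD replicates 1 and 2), 0.44 in F and 0.33 in F(OVX). The probes of Ccl25 disagreed in F, where a second, dimmer probe differed by -0.53. Cx3cl1, the membrane-bound ligand of Cx3cr1 on resident macrophages, stayed between 11.42 and 12.26 on all arrays. Cx3cr1 itself spanned 8.29 to 11.59, with differences of 0.00 in M, -0.54 in F and -0.46 in F(OVX). Cxcl14, an epithelial chemokine, and Cxcl12, the stromal ligand of Cxcr4, had differences between -0.31 and 0.26, each smaller than 1.5 times its SE. Ccl11, an eosinophil attractant, ranged from 7.48 to 9.16 and differed by -0.15 ± 0.33 in M, 0.01 ± 0.34 in F and -0.02 ± 0.26 in F(OVX). Ccl8, a monocyte and T cell attractant, differed by -0.66 ± 0.34, -0.56 ± 0.29 and 0.14 ± 0.39 in the same order. The chemokine receptors of gut-homing cells were dim, with Ccr9 well above background on 20 arrays and Ccr10 on 17, and neither was tested in F(OVX). Ccr9 differed by -0.12 in M (-0.46 without M + LFD replicates 1 and 2) and -1.0 ± 0.84 in F, and Ccr10 by -0.29 in M (-1.04 without them) and 0.33 ± 0.16 in F. The atypical receptor Ackr1, which binds chemokines on venules without signaling, differed by 0.18 in M (-0.04 without M + LFD replicates 1 and 2), 0.22 in F and -0.20 in F(OVX) and was not called.

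Other genes of the chemokine system were counted from a list of 23. In M 11 of them were tested and none was called. In F(OVX) 1 of 11 was called, Pf4, a platelet chemokine also known as Cxcl4, at -1.03 ± 0.26 (log2, SE). Of 32 genes that signal below the receptors, 0 of 32 tested were called in F and 1 of 29 in F(OVX) (Rgs16, a brake on G protein signaling, -1.10 ± 0.37).

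Receptors and ligands were then compared array by array, to see which pairs varied together among mice of the same group. The log2 signals were taken as deviations from the group means over the 24 arrays, in 10 of 12 pairs listed. The pairs Ccl5 with Ccr1 and Cxcl2 with Cxcr2 were left out because a member was well above background on fewer than 12 arrays. Permutations were made within groups, and p-values were adjusted over the 10 pairs. Of these, 4 pairs had an adjusted p under 0.05, and 3 of the 4 belong to lymphoid tissue.

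Ccl19 and Ccr7, the pair that brings dendritic cells and T cells into lymphoid tissue, had r = 0.96 (rho = 0.93, permutation adjusted p = 3.33e-05 for r and 5e-05 for rho). Within the slides of M, F and F(OVX) r was 0.97, 0.94 and 0.99, and without the 2 arrays farthest in Ccl19 it was 0.95. Cxcl13 and Cxcr5, the pair that draws B cells into follicles, had r = 0.92 (rho = 0.86, permutation adjusted p = 3.33e-05 and 0.0001), with 0.87, 0.96 and 0.94 within slides and 0.89 without the 2 farthest arrays. Ccl20 and Ccr6 had r = 0.82 (rho = 0.83, permutation adjusted p = 3.33e-05 and 5e-05), with 0.90, 0.83 and 0.94 within slides and 0.78 without the 2 farthest arrays. The raw p of r behind all 3, 1e-05, is the smallest the permutations can give.

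The levels behind these pairs spanned a wide range within groups. Ccl19 read 5.19, 5.25, 9.32 and 9.48 in F + LFD and 7.50, 4.96, 8.82 and 8.76 in F + HFD. Ccr7 read 8.61, 8.56, 10.74 and 11.63 in F + LFD and 8.71, 8.21, 10.33 and 10.85 in F + HFD. Both genes were higher on replicates 3 and 4 than on replicates 1 and 2 in both diets. Their diet differences in F were 0.20 ± 1.28 and -0.36 ± 0.85 (log2, SE), so that the spread within a diet exceeded the difference between diets.

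Cxcr5 read 3.81, 5.0, 6.52 and 7.98 in M + LFD and 7.09, 8.59, 6.68 and 4.17 in M + HFD. Cxcl13 read 6.23, 8.20, 8.06 and 9.20 in M + LFD and 8.95, 9.64, 8.28 and 8.02 in M + HFD. The lowest Cxcl13, Ccl19 (3.6) and Ccr7 (6.60) of all 24 arrays were on M + LFD replicate 1, which also held the lowest Cxcr5. Without M + LFD replicates 1 and 2, r was 0.95 for Ccl19 with Ccr7, 0.92 for Cxcl13 with Cxcr5 and 0.78 for Ccl20 with Ccr6.

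Markers of lymphoid follicles moved with these 6 genes. Over the mean log2 signal of Cr2, Fcer2a and Madcam1, which mark follicular dendritic cells, B cells and the vessels of gut lymphoid tissue, r lay between 0.84 for Ccl20 and 0.97 for Cxcr5 (rho between 0.82 and 0.95, permutation adjusted p at most 4.36e-05). Within slides it lay between 0.69 and 0.99, and without the 2 farthest arrays between 0.80 and 0.98. Over 5 B and plasma cell markers r lay between 0.81 and 0.97 (rho between 0.81 and 0.96, permutation adjusted p at most 6e-05), with 0.77 to 0.99 within slides and 0.81 to 0.98 without the 2 farthest arrays. These 12 relations were chosen after the ligand and receptor pairs had been seen. Among the 6 genes the 12 pairs that are not ligand and receptor also had r between 0.71 and 0.95, so the correlation was not particular to a ligand and its own receptor.

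**Figure D4:**
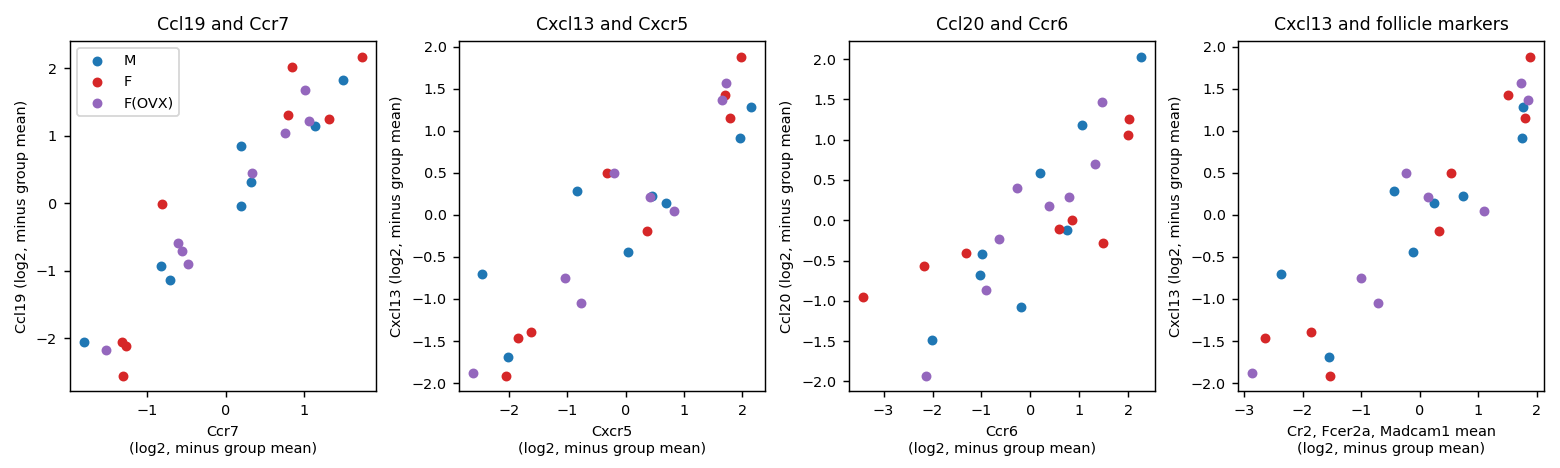
Deviations from the group mean on the log2 scale, 1 point per array and colored by sex or surgery, for Ccl19 against Ccr7 (r = 0.96), Cxcl13 against Cxcr5 (r = 0.92), Ccl20 against Ccr6 (r = 0.82) and Cxcl13 against the mean of 3 follicle markers (r = 0.92). In each panel the points of M, F and F(OVX) follow the same rising course.

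The other pairs did not share this course. Cxcl16 and Cxcr6, a pair of mucosal T cells, had r = 0.56 (permutation adjusted p = 0.0298), but rho = 0.50 had an adjusted p of 0.0706 by permutation, and r was 0.39, 0.88 and 0.20 within slides and 0.42 without the 2 farthest arrays. Cxcl9 with Cxcr3 had r = 0.40 (rho = 0.39, permutation adjusted p = 0.105 and 0.150). Ccl2 with Ccr2 had r = 0.20 (rho = 0.30, permutation adjusted p = 0.612 and 0.357), although it reached 0.89 within the slide of F against 0.35 and -0.39 in M and F(OVX). The remaining 4 pairs had r between -0.12 and 0.34 and rho between -0.10 and 0.24, with adjusted permutation p-values from 0.369 to 0.992.

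Last, sex and surgery were compared on each diet, where slide cannot be told apart from group. F(OVX) + LFD against F + LFD gave 1 called member of 34 (2.94%), beside 1.92% of the genes, which was Ccr2 (-1.16 ± 0.44, log2, SE). It passed the filter through F + LFD, where it was high, since 2 of 4 F(OVX) + LFD arrays were well above background, and the call was lost without F + LFD replicate 3 (-0.99) or 4 (-1.13) and under normexp (-0.33). Without F(OVX) + LFD replicate 3, a dim array, it was -0.73 and still called. F(OVX) + HFD against F + HFD gave 0 of 27, beside 3.1% of the genes, and by limma 0 of the 27 had an unadjusted p under 0.05. No member had an adjusted limma p under 0.05 in these comparisons or in those of M with F.

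M + LFD against F + LFD gave 1 of 34 (2.94%), beside 4.24% of the genes, which was Cxcr3, lower in M + LFD (7.22 to 7.41) than in F + LFD (7.60 to 8.81) with no overlap. Its difference was -0.84 ± 0.30 (log2, SE, n = 4 + 4, adjusted limma p = 0.538, exact permutation p = 0.0286). It was -0.81 and not called without M + LFD replicates 1 and 2, and Ccl4 (-0.84) and Ccl5 (-1.03) were called instead. Nor was it called without M + LFD replicate 1 or F + LFD replicate 3 or 4 (-1.04 to -0.63 over the arrays left out).

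M + HFD against F + HFD gave 4 of 31 (12.9%), beside 8.12% of the genes. Cxcl1 was higher in M + HFD, where the lowest array (5.29) exceeded the highest of F + HFD (4.92). The difference was 2.28 ± 0.61 (log2, SE, n = 4 + 4, adjusted limma p = 0.231, exact permutation p = 0.0286), and it was called with any 1 array left out (1.79 to 2.68) and under normexp (0.74). It passed the filter through M + HFD, where it was high, since 1 of 4 F + HFD arrays was well above background. Ccl2 was higher by 1.19 ± 0.38 and called likewise (0.87 to 1.42). Ccl7 was higher by 1.05 ± 0.46 and Ccl9 lower by -1.17 ± 0.51, and these calls were lost when any 1 of 7 and of 6 arrays was left out, with Ccl7 at 0.58 without M + HFD replicate 2 and Ccl9 at -0.82 without M + HFD replicate 1.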

How the data were processed

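Colon RNA of 24 mice was measured by the authors on 1-color Agilent arrays, 1 mouse per array, and groups and replicate numbers were taken from the sample labels. The methods give 5 animals per group for the arrays, and the 4 arrays per group in the labels were analyzed. The authors deposited linear spot intensities, extracted with Feature Extraction 11.0.1.1 (version as in the submitters' processing notes), with background subtracted and no normalization between arrays. Median intensities of spot and local background, and flags of 0 or 1 for well above background, saturation and outliers (scores in the deposited files), were read beside them.

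Outlier and control spots were left out, and log2 values of the processed signal were brought to a common distribution by quantile normalization of the 24 arrays, as in the study's methods. Accessions were matched without version to a RefSeq gene table (GRCm38.p6), which gave a symbol to 32994 of 56605 probes (58.3%). The array annotation uses another assembly, so no probe coordinates are given. A gene entered a test if every array of at least 1 of the compared groups had its brightest probe well above background. Each comparison of 2 groups was fitted on its own 8 arrays with limma 3.58.1 (lmFit, eBayes) in R 4.3.3, and effects over M, F and F(OVX) in 1 fit of all arrays. Exact permutation tests were two-sided over 70 assignments, with a smallest p of 0.0286. Correlations used 100000 permutations within groups in numpy and scipy. Precision is set by the number of arrays, which have no read depth. The p-values measure the spread between animals of 1 experiment. The fits and correlations were tested on simulated data.

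Same-numbered F arrays, which share a slide column, deviated together from their group means (r = 0.28, 0.45, 0.58 and 0.26 over 16836 genes). The labels name no pairing of the mice, and whether the numbers pair the F arrays was not tested. In M r was 0.01, -0.26, 0 and -0.03, and in F(OVX) 0.33, -0.09, 0.32 and 0.25.

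The alternatives were scaling by the 75th percentile, normexp background correction (offset 50, on median spot intensities), other filters on dim probes, the mean of a gene's probes, the replicate block, the methods' t-test, 1 fit of 24 arrays, and leaving out arrays. Values on every array are given for members called in a diet comparison, in the average or for differing effects, and for members whose diets did not overlap. Values of Ccl19, Ccr7, Cxcl13, Cxcr5, Cxcl2 and Ccl22 were added after they had been seen. The members and lists were chosen with earlier results of these data known. Promoter windows came from RefSeq. Results of some genes outside the members are not reported here.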

Additional observations from a re-analysis of the deposited data

Results flagged for a closer look

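Examined were 15 members, most of them with values given on single arrays above. Their 79 groups of 4 arrays with at least 1 array well above background were searched for 1 array far from the other 3. Such an array was found in 6 groups. Chance marks about 1 group in 20. Ccl22 (6.10) and Cxcl2 (5.14) were high on M + HFD replicate 2, where the other arrays of the group read at most 2.15 and 2.10. Ccl20 was high on F + LFD replicate 4 (9.15, against 7.32 to 7.61). Ccr2 was low on F + HFD replicate 2 (2.30, against 4.48 to 4.76), an array with few probes well above background. Ccl17 was low on M + LFD replicate 1 (5.0, against 6.24 to 6.49), an array without the distal colon marker. Ccr7 was low on M + HFD replicate 4 (8.10, against 9.0 to 9.13), where Cxcr5 (4.17) was also the lowest of its group.

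The diet effect differed between M and F by 2.85 for Cxcl1, 3.75 for Cxcl5, 2.14 for Ccl7, 1.77 for Ccl17 and 1.55 for Ccl2 (log2, unadjusted limma p between 0.0038 and 0.0432, adjusted p = 0.975). Between M and F(OVX) it differed by 3.05 for Cxcl1, 4.34 for Cxcl5, 3.0 for Ccl17, 2.81 for Ccl20, 2.11 for Ccl7, 0.84 for Ccl28 and -1.61 for Ccl9 (unadjusted limma p between 0.00156 and 0.0438, adjusted p between 0.562 and 0.660).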

How the results depend on the processing

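The member values that were called kept their direction under every alternative run for them. In F dimmer probes had the other sign for Ccl25 (-0.53 and -0.45, against 0.44) and Ccl28 (0.45, against -0.04). The counts of members called were small and moved easily from the reported 2 in M, 3 in F, 3 in F(OVX), 1 for the averaged effect, 5 for differing effects and 1, 0, 1 and 4 for surgery on LFD and HFD and sex on LFD and HFD. With single arrays left out they ranged from 0 to 10 in M, 1 to 8 in F, 1 to 5 in F(OVX), 0 to 5 for the averaged effect and 2 to 6 for differing effects, and from 0 to 7 for F(OVX) against F on LFD, 0 to 2 on HFD, 0 to 6 for M against F on LFD and 2 to 7 on HFD. Under normexp the counts were 0 in M, 1 in F and 2 for F(OVX) against F on LFD. With no filter on dim probes M had 0. With probes well above background on all 24 arrays, where 24 members were tested, M, F and F(OVX) had 1 each, the averaged effect 0, differing effects 2 and F(OVX) against F on LFD 0. The replicate block gave 9 in F (586 of all genes, against 264 without it), 2 for the averaged effect, 2 for F(OVX) against F on LFD, and 9 and 2 for M against F on LFD and HFD. It changed no other count by over 1.5 times, but Ccl20 in F(OVX) and both calls in M were lost with it. Same-numbered M and F(OVX) arrays share a slide column too, but not every pair deviated together. The methods' t-test gave 0 in M, 1 in F, 1 in F(OVX), 0 for F(OVX) against F on LFD and 2 for M against F on HFD. A fit of all 24 arrays gave 5 in F, 2 for F(OVX) against F on LFD and 2 for M against F on LFD. The mean of a gene's probes gave 2 for the averaged effect and 2 for M against F on LFD, and scaling by the 75th percentile gave 2 for F(OVX) against F on LFD. Without M + LFD replicates 1 and 2 together, 1 member was called for differing effects and 2 for M against F on LFD. Without both dim arrays (replicate 2 of F + HFD and replicate 3 of F(OVX) + LFD), chosen after seeing the data, the averaged effect had 0 and differing effects 3. The cause was not tested. The other counts, 94 in all, stayed within 1.5 times. Of the values of single members under these settings, 270 stayed on their side of the thresholds and 137 were no longer called. Of 10 ligand and receptor pairs, 4 passed in both alternatives run for them. Signal over background left Cxcl2, Cxcl3, Ccl22, Ccr1 and Cxcr2 without a tested diet difference.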
